A study of Mus musculus with 24 samples.

Results

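RNA-seq levels were examined for 9 genes at 5 imprinted loci of the mouse, in 4 of which a short gene lies inside an intron of a larger host gene. The 9 genes were Nnat in Blcap, Nap1l5 in Herc3, Zrsr1 in Commd1, Mcts2 in H13, and Inpp5f, and they were found by symbol, 9 of the 34745 genes in the deposited table. All 9 passed the filter on low counts that kept 16026 genes. Whole embryos of the hybrid 129/DBA background were taken at E13.5, and 1 library was made from each embryo. By the crosses the study describes, mothers of both groups were Zfp57-/- females of the 129 strain, and fathers were Zfp57+/- males that were mainly DBA/2J. Every embryo compared here therefore lacked maternal Zfp57. The 6 embryos labelled M-Z+ (Zfp57-/+) had received a wild-type allele from the father, and the 6 embryos labelled M-Z- (Zfp57-/-) had no wild-type allele. Embryos with maternal Zfp57 were not analysed by RNA-seq here, so that no value stands for an intact imprint. Depth was similar in both groups, with 12347383 to 19216288 reads assigned to genes in an M-Z+ library (median 14142528) and 12005145 to 14617373 in an M-Z- library (median 13356726). Levels are given as CPM, in which the counts of a library are scaled to a common library size after TMM normalization, and no count separates the alleles of the mother and the father.

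At an imprinted locus the alleles from the mother and the father differ in DNA methylation at an imprinting control region, and a single parental allele of the gene is used. ZFP57 is a zinc finger protein that binds the methylated hexamer TGCCGC and keeps the methylation of many such regions after fertilization. A retrogene arises when a messenger RNA is copied back into the genome, and several imprinted retrogenes of the mouse landed in an intron of an unrelated gene, where their promoter carries methylation from the egg and transcription comes from the paternal allele. At H13 and Herc3 the parental alleles have been described to differ in where the host transcript ends, a difference that 1 count per gene does not show. Nnat also lies in a host intron, and its origin was not examined. The Inpp5f locus also has a shorter imprinted transcript that starts inside the gene, and the table holds 1 count for both forms together.

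The sequences before the transcription starts are shown because the ZFP57 hexamer was searched there. They were taken from RefSeq (GRCm38.p6) for all 9 genes, as windows of 300 bases that held 250 bases before the start and 50 bases from it, and TGCCGC was counted on either strand, which reads GCGGCA on the other strand. Upstream stretches of 250 bases are given for 3 genes, with the hexamer in capitals where it occurs, which is in Nap1l5 and Mcts2 but not in Nnat. They belong to Nap1l5 (chr6:58907127-58907376, minus strand), Mcts2 (chr2:152686898-152687147, plus strand) and Nnat (chr2:157559828-157560077, plus strand).
Nap1l5 upstream: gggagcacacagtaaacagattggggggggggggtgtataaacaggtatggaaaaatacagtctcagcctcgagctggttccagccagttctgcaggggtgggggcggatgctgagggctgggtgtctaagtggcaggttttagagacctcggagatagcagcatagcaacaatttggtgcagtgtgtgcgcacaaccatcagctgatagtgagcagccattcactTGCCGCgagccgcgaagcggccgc
Mcts2 upstream: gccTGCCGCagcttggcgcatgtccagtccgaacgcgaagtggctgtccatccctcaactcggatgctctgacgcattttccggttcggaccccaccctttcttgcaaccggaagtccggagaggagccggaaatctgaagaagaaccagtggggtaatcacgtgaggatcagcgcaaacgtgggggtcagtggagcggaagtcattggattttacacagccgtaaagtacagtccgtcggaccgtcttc
Nnat upstream: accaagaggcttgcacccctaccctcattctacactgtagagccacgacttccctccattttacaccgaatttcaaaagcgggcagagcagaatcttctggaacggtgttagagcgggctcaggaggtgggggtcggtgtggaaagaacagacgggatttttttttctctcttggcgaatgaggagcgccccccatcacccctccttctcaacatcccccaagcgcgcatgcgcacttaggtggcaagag
The Nap1l5 window held 2 matches, with their leading bases 24 bases before the start and at base 28 after it, and Mcts2 held 1 match whose leading base was 247 bases before the start. Nnat held 1 match on the other strand at base 28, and the Commd1 start at position 22982284 held 1 at base 10, also on the other strand. The matches downstream of the start are given with a few neighbouring bases.
Nap1l5 downstream match: gtcagcgttTGCCGCatcttcaga
Nnat downstream match: accggggctGCGGCAttgcgccca
Commd1 downstream match: agccgctggGCGGCAggccctcct
No match was in the windows of H13, Blcap, Herc3, Inpp5f, Zrsr1 or the other Commd1 start. The Inpp5f window lay at the start at position 128611365, and the imprinted start inside the gene was not searched. The Zrsr1 window lay at the RefSeq start at 22972005, before the position 22973215 where the gene begins in the deposited counts. Of 32851 windows of this kind in the whole RefSeq table, 11.6% held at least 1 match and 1.53% held 2 or more, so that a match is common and does not by itself mark a binding site. CG dinucleotides numbered 25 in the Mcts2 window, 21 in H13, 18 and 17 at the Commd1 starts, 17 each in Nnat, Blcap and Nap1l5, 15 in Inpp5f, 10 in Zrsr1 and 4 in Herc3, against a median of 7 over all windows.

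The deleted gene was looked at before the others. Zfp57 was at 19.1, 23.7 and 40.8 CPM (lowest, median and highest of 6) in the M-Z+ embryos and at 17.8, 26.5 and 27.8 CPM in the M-Z- embryos. The groups overlapped, and the log2 fold change of M-Z- over M-Z+ was -0.15 (SE 0.18, adjusted p = 0.828 by edgeR's quasi-likelihood test). Which part of Zfp57 the mutant allele lacks is not given in the sources used here, so that this count does not check the genotype labels. Ddx3y, a gene of the Y chromosome, was above 5 CPM in 3 embryos of each group. Xist, the RNA of the inactive X chromosome, was above 5 CPM in 2 M-Z+ and 3 M-Z- embryos. M-Z+ replicate 3 had neither, with 0.152 CPM of Xist and 0 reads of Ddx3y, and the calls made for the 9 genes are given without it where they are described. The labels give no sex, and the embryos were not divided by it.

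Markers of the tissues that a whole embryo holds were read beside the 9 genes, since Nnat in particular is a gene of neurons and endocrine cells. The summed level of 15 neural genes, Tubb3 the most abundant, was 3200.3 ± 299.6 CPM (SD, n = 6) in the M-Z+ group and 2934 ± 208 CPM in the M-Z- group (exact permutation test, two-sided p = 0.0823), and 0 of the 15 passed edgeR's test after adjustment. Their median log2 fold change was -0.14, only 4 of the 15 were above 0, and 5 had an unadjusted p below 0.05, where 6.7% of all genes tested did. For each of the 6 replicate numbers, the neural sum was lower in the M-Z- than in the M-Z+ embryo of that number. The permutation test did not take the numbers as pairs, and no paired test of this sum was run. Hepatocyte genes, led by Afp, summed to 5339 ± 1437 and 4571 ± 1391 CPM, and erythroid genes, led by Hbb-y, to 9210 ± 2167 and 9677 ± 1425 CPM. Muscle genes, led by Actc1, summed to 1220 ± 62.4 and 1328 ± 157 CPM, and cartilage genes, led by Col2a1, to 1600 ± 259 and 1763 ± 232 CPM. The exact permutation p was 0.355, 0.654, 0.165 and 0.286 for these 4 lists in that order. Endocrine pancreas markers were close to the limit of detection, with sums of 4.01 ± 0.430 CPM (M-Z+) and 2.40 ± 0.864 CPM (M-Z-) (exact permutation p = 0.00649). Gcg made up most of that sum at a mean of 2.33 CPM, Ins2 was at 0 in all 12 libraries, and only 1 of the 5 markers was tested. Placental Tpbpa, Prl3d1 and Ctsq were at 0 in all 12 libraries. The part that tissue content plays in the values of the 9 genes was not tested, and in RNA from a whole embryo fewer cells that use a gene and less RNA per cell cannot be told apart.

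Per kilobase of merged exons (GENCODE vM1 lengths), Nnat was by far the most abundant of the 9 genes. In the M-Z+ embryos the order of mean levels per kilobase was Nnat (234 CPM per kb), Blcap (28.0), Mcts2 (22.0), H13 (14.5), Inpp5f (12.7), Nap1l5 (11.0), Zrsr1 (6.68), Commd1 (5.10) and Herc3 (3.00). The ranges over 6 embryos of neighbours in this order overlapped except for Nnat and Blcap and for Commd1 and Herc3. In the M-Z- embryos the order was Nnat (340), Inpp5f (21.8), Nap1l5 (21.0), Mcts2 (20.9), Blcap (15.1), H13 (13.7), Zrsr1 (9.24), Commd1 (4.61) and Herc3 (3.06). Here the neighbours Inpp5f, Nap1l5, Mcts2, Blcap and H13 overlapped each with the next, and the other neighbours did not. Blcap thus stood above Inpp5f and Nap1l5 in the M-Z+ embryos and below both in the M-Z- embryos. The largest coefficient of variation among the 9 genes was that of Nnat, 25.9% over the M-Z+ embryos.

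**Figure D1:**
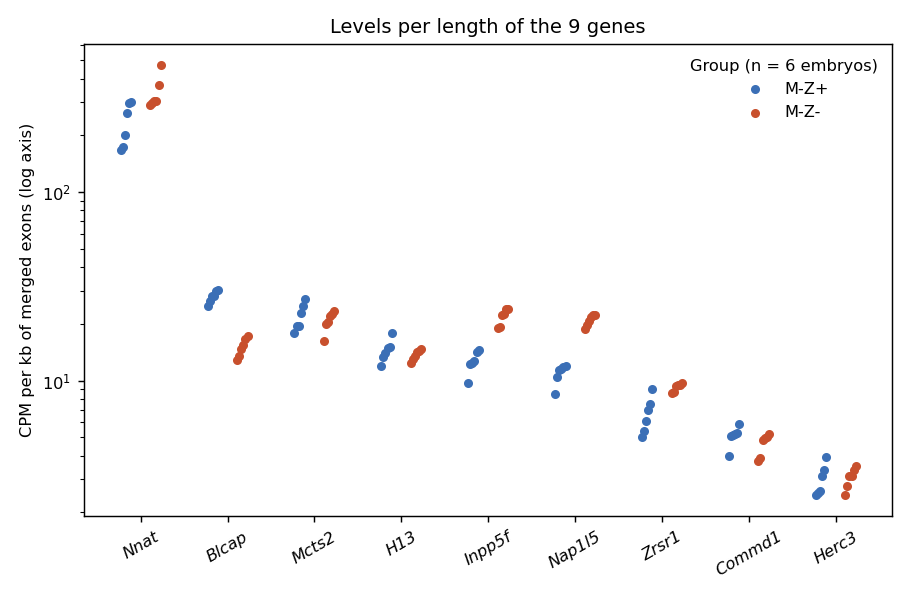
Level per kilobase of merged exons (CPM per kb, log axis) of the 9 genes in each of 6 M-Z+ (blue) and 6 M-Z- (orange) embryos, 1 point per embryo, ordered by the M-Z+ mean. Nnat lies above 150 CPM per kb in every embryo, and the groups are apart for Blcap, Inpp5f and Nap1l5.

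Nap1l5 and Inpp5f were higher and Blcap was lower in M-Z- than in M-Z+ embryos, 3 of the 9 genes called with a threshold of 0.05 on the adjusted p and of 0.5 on the size of the log2 fold change. By this rule 0.0811% of all 16026 genes tested were called (13 genes), 0.0437% as raised and 0.0374% as lowered. The same 3 genes were those in which every embryo of a group lay beyond every embryo of the other, which was so for 0.574% of all genes (0.3% with M-Z- above and 0.275% with M-Z- below). Nnat and Zrsr1 had higher means in M-Z- embryos but did not pass the test after adjustment. Nnat was past both limits with the unadjusted p, as were 1.54% of all genes, and Zrsr1 was below the limit on the fold change. Herc3, Commd1, Mcts2 and H13 had log2 fold changes within 0.15 of 0. For its own male M-Z+ embryos the study reports almost biallelic Nnat, biallelic H13 and raised Zrsr1, compared with males that had maternal Zfp57. Whether this bears on the values of these 3 genes here was not tested. The median log2 fold change was 0.50 over the 4 inner genes and -0.11 over the 4 host genes, beside -0.0072 over all genes tested.

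**Figure D2:**
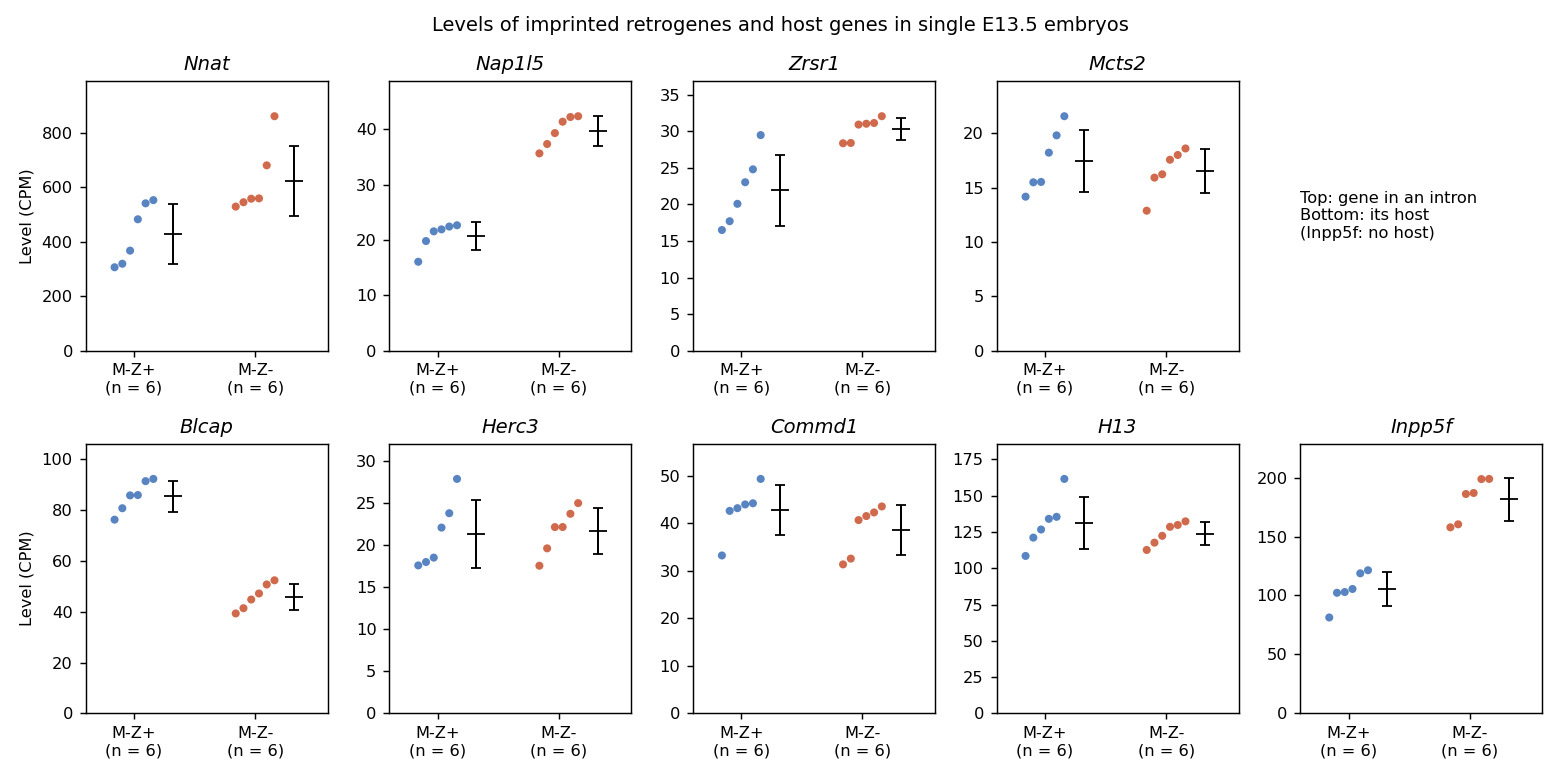
Level (CPM) of each gene in 6 M-Z+ (blue) and 6 M-Z- (orange) embryos, sorted within a group, with the mean and SD in black and axes that start at 0. Top panels hold the inner genes and bottom panels their hosts and Inpp5f, and the groups do not overlap for Nap1l5, Blcap and Inpp5f.

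Nap1l5, an intronless gene related to the nucleosome assembly proteins (chr6:58905233-58907076), was at 16.1, 21.7 and 22.7 CPM (lowest, median and highest) in the M-Z+ embryos. It was at 35.6, 40.3 and 42.4 CPM in the M-Z- embryos. No M-Z- embryo came near the M-Z+ range, and the mean was 1.91-fold higher (log2 fold change 0.94, 95% interval 0.74 to 1.14, adjusted p = 0.000238 by edgeR). Its host Herc3, a ubiquitin ligase of the HERC family (chr6:58831465-58920398), was at 17.6, 20.3 and 27.8 CPM in the M-Z+ and 17.5, 22.1 and 24.9 CPM in the M-Z- embryos. The groups overlapped almost entirely, and the log2 fold change was 0.026 (95% interval -0.25 to 0.30, adjusted p = 0.959). Counts of Nap1l5 divided by those of Herc3 in the same embryo were 0.815, 0.970 and 1.17 in M-Z+ and 1.58, 1.78 and 2.24 in M-Z- embryos. The ratio was therefore higher in all 6 M-Z- embryos, by 0.91 on the log2 scale or 1.87-fold (exact permutation test, two-sided p = 0.00216, the smallest that 6 against 6 allows). Per length, the median ratio was 3.63 in M-Z+ and 6.67 in M-Z- embryos. Without M-Z+ replicate 3 the adjusted p of Nap1l5 was 0.00111.

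Blcap was lower in every M-Z- embryo, and Nnat, with a higher mean, did not pass the test. Blcap, which encodes a small protein named for its loss in bladder cancer (chr2:157556362-157571274), was at 76.2, 85.8 and 92.2 CPM in the M-Z+ embryos and at 39.3, 46.0 and 52.3 CPM in the M-Z- embryos. The mean was 46.2% lower in the M-Z- embryos, with a log2 fold change of -0.89 (SE 0.083, adjusted p = 0.000212 by edgeR), and 0.000591 without M-Z+ replicate 3. It was the only host gene of the 4 that was called. Nnat, or neuronatin, a small membrane proteolipid of neural and endocrine cells (chr2:157560078-157562522), was at 306, 424 and 552 CPM in the M-Z+ embryos and at 528, 558 and 860 CPM in the M-Z- embryos. The M-Z+ values were widely spread, and 4 of the 6 M-Z- embryos lay above the highest of them. The mean was 1.45-fold higher (log2 fold change 0.54, SE 0.17, 95% interval 0.17 to 0.91), with an adjusted p of 0.685 by edgeR. The exact permutation test on its CPM alone gave a two-sided p of 0.0152. Within embryos, 3.32, 4.82 and 7.25 reads of Nnat were counted per read of Blcap in M-Z+ embryos and 11.0, 13.5 and 16.4 in M-Z- embryos. The groups did not overlap, as they already did not for Blcap alone, so that the ratio is no separate evidence on Nnat. The ratio was 2.74-fold higher (1.45 on the log2 scale, exact permutation p = 0.00216). Per length, the median ratio was 8.02 and 22.4. With the slope of level on gene length of each library as a covariate, the log2 fold change of Nnat was 0.73 (adjusted p = 0.0703 by edgeR). This slope was 0.537 ± 0.0770 in M-Z+ and 0.588 ± 0.0606 in M-Z- libraries (SD, n = 6). It rests on the gene lengths that the deposited FPKM values imply, and that of Nnat, 7180 bases, exceeds its span of 2445 bases.

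Zrsr1, a retrocopy of the splicing factor gene Zrsr2 (chr11:22973215-22976496), was at 16.5, 21.6 and 29.5 CPM in the M-Z+ embryos and at 28.4, 31.0 and 32.1 CPM in the M-Z- embryos. The M-Z- embryos were close together, with a coefficient of variation of 5.12% against 22.1% for M-Z+, and 4 of the 6 lay above the highest M-Z+ embryo. The mean was 1.38-fold higher (log2 fold change 0.47, SE 0.13, 95% interval 0.19 to 0.74), which did not pass edgeR's test (adjusted p = 0.552). On its CPM alone the exact permutation test gave a two-sided p of 0.00649. Commd1, a copper metabolism and protein sorting gene (chr11:22896136-22982382), was at 33.2, 43.6 and 49.3 CPM in the M-Z+ and at 31.4, 41.1 and 43.6 CPM in the M-Z- embryos. Its groups overlapped, with a log2 fold change of -0.15 (95% interval -0.38 to 0.09, adjusted p = 0.758). The ratio of Zrsr1 to Commd1 counts was 0.375, 0.518 and 0.683 in M-Z+ and 0.684, 0.759 and 0.993 in M-Z- embryos. The groups touched without overlapping, and the ratio was 1.56-fold higher (0.64 on the log2 scale, exact permutation p = 0.00216). The exons of these genes share 203 bases in GENCODE vM1, on opposite strands, which is 6.18% of the Zrsr1 and 2.42% of the Commd1 exon length. Reads there cannot be assigned without strand. The study's methods describe strand-specific counting with featureCounts on mm9 for its own libraries, and whether the deposited table, for which mm10 is listed, was counted with strand is not stated in the sources used here. A further gene model, Gm28048, overlaps Commd1 and took 848 reads over all 12 libraries.

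Mcts2 and H13 did not differ between the groups beyond their spread. Mcts2, a retrocopy of the translation factor gene Mcts1 (chr2:152687035-152687951), was at 14.2, 16.9 and 21.6 CPM in the M-Z+ and at 12.9, 16.9 and 18.6 CPM in the M-Z- embryos. The medians were alike, and the log2 fold change was -0.078 (SE 0.12, 95% interval -0.34 to 0.19, adjusted p = 0.867 by edgeR). H13, or signal peptide peptidase, which cuts signal peptides in the membrane (chr2:152669461-152708670), was at 109, 130 and 162 CPM in the M-Z+ and at 113, 125 and 132 CPM in the M-Z- embryos. Its log2 fold change was -0.083 (SE 0.088, 95% interval -0.27 to 0.11, adjusted p = 0.800). The ratio of Mcts2 to H13 counts was 0.105, 0.135 and 0.170 in M-Z+ and 0.0992, 0.139 and 0.156 in M-Z- embryos. The ranges covered each other, with a fold of 1.00 and an exact permutation p of 0.981. Mcts2 had 155 to 400 reads per library, and the 95% interval of its log2 fold change left out a rise as large as that of Nap1l5. Of the 4 pairs, this is the only one in which both genes are transcribed from the same strand.

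Inpp5f, a phosphatase of phosphoinositide lipids (chr7:128611328-128696425), was at 81.3, 104 and 121 CPM in the M-Z+ and at 158, 186 and 199 CPM in the M-Z- embryos. The groups were well apart, and the mean was 1.72-fold higher (log2 fold change 0.78, 95% interval 0.57 to 1.00, adjusted p = 0.00268 by edgeR, and 0.0118 without M-Z+ replicate 3). Which of the forms of the gene rose cannot be told apart in 1 count per gene. The nearest gene, Mcmbp, lies 16 bases beyond the end of Inpp5f by the deposited positions. It had a log2 fold change of 0.099 (SE 0.078, adjusted p = 0.761 by edgeR).

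**Figure D3:**
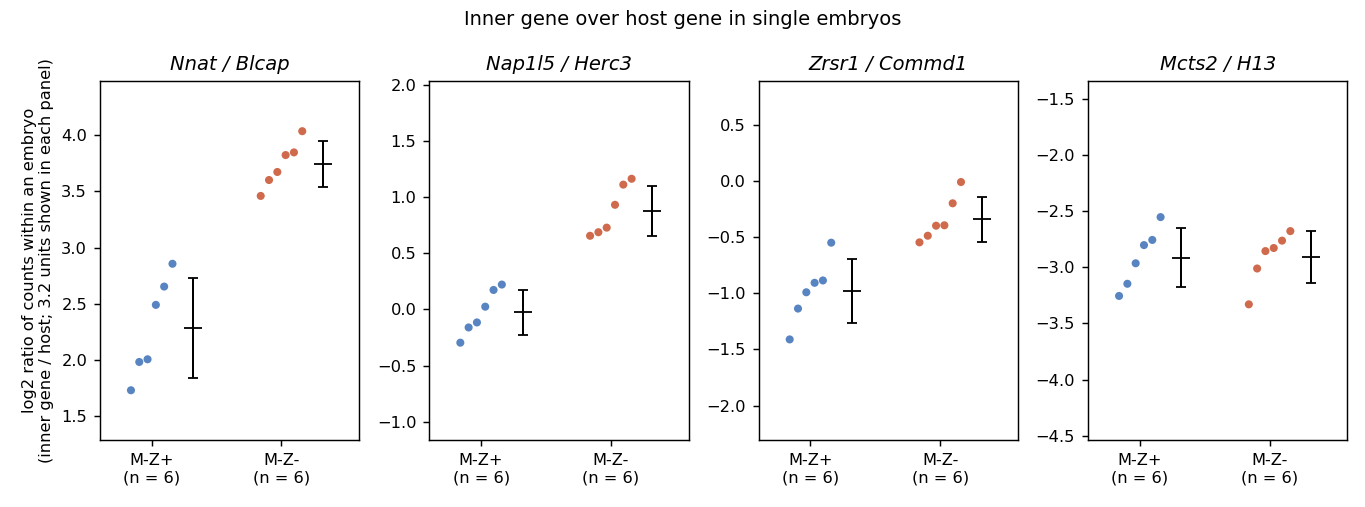
Log2 ratio of the counts of the inner gene over its host within each embryo, for 6 M-Z+ (blue) and 6 M-Z- (orange) embryos, sorted within a group, with the mean and SD in black and the same height of log2 units in each panel. The groups are apart for Nnat over Blcap, Nap1l5 over Herc3 and, narrowly, Zrsr1 over Commd1, and they overlap for Mcts2 over H13.

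In all, 3 of the 4 ratios within embryos were higher in every M-Z- embryo, and the share of other gene pairs that do so was not computed. For 2 of the 3, Blcap or Nap1l5 alone already separated the groups, while neither Zrsr1 nor Commd1 did so alone. The SD of the log2 ratio was 0.44 for Nnat over Blcap and at most 0.29 for the other pairs in M-Z+ embryos, and lay between 0.20 and 0.23 in M-Z- embryos. The 95% intervals of the log2 fold changes lay above 0 for Nap1l5, Nnat and Zrsr1, of which only Nap1l5 was called after adjustment, and below 0 for Blcap, and they included 0 for Herc3 and Commd1. Whether the pairs differ from each other was not tested. Leaving out any 1 embryo kept the differences at 1.34 to 1.57, 0.85 to 0.95 and 0.55 to 0.73 on the log2 scale, in the order given in the plot of ratios, with exact permutation p at most 0.00433.

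The nearest genes outside the hosts were examined for a change that reached beyond the pairs. They were the 2 nearest tested genes on each side of the 4 hosts and of Inpp5f, 20 genes in all, and 0 of them passed edgeR's test, nor was any at an unadjusted p below 0.05 (6.7% of all genes tested). DESeq2 called 0 of them as well. Their median log2 fold change was -0.043, with a range from -0.72 for Gm14286, a gene model at about 1 CPM, to 0.43 for Rem1. Beside Herc3, the gene Fam13a had a log2 fold change of -0.016 (SE 0.16) and Tigd2 of 0.0012 (SE 0.085). Beside Blcap, the kinase gene Src was at -0.052 (SE 0.080) and Ctnnbl1 at -0.16 (SE 0.093). Beside Commd1, the chaperonin gene Cct4 was at -0.054 (SE 0.081), and beside H13 the transcription regulator Id1 was at -0.045 (SE 0.12). Distances of the 20 genes from the host or Inpp5f ran from 0.016 kb for Mcmbp beside Inpp5f to 1006 kb for Vopp1 beside Herc3. On the higher side of Blcap, the nearer gene, Ctnnbl1, lay 166 kb away. At these distances no gene beside Blcap, Nap1l5 or Inpp5f was called.

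**Figure D4:**
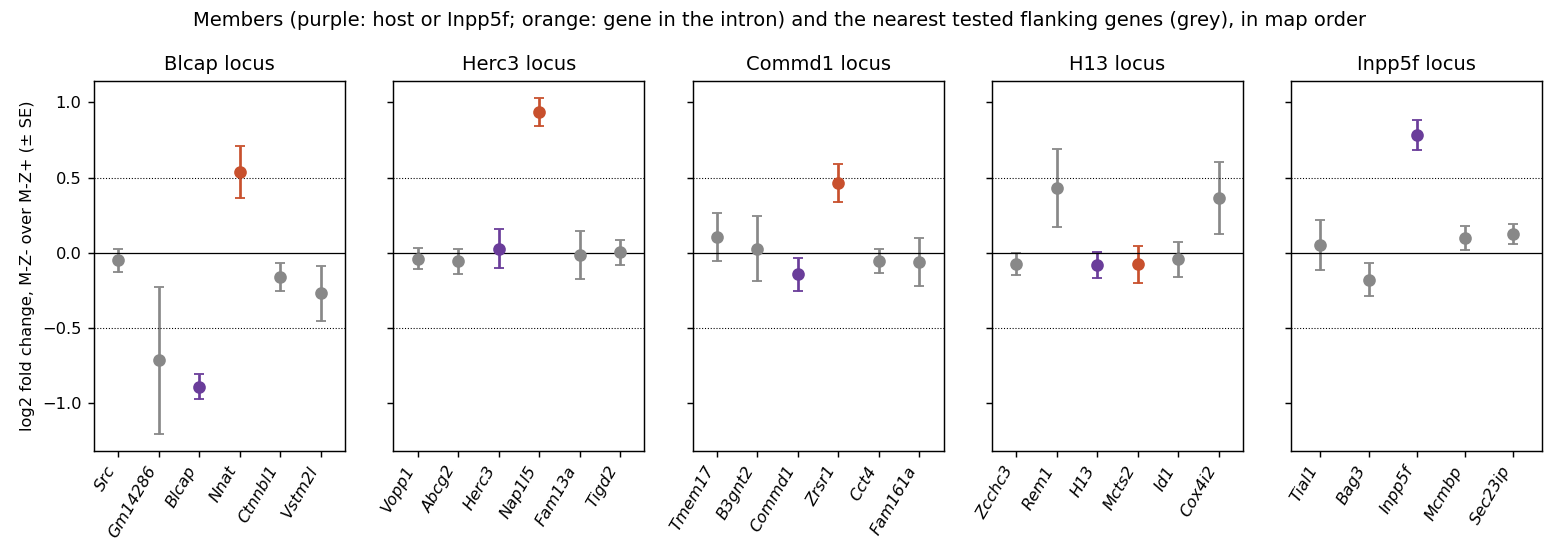
Log2 fold change of M-Z- over M-Z+ (± SE, 6 embryos per group) of host genes and Inpp5f (purple), inner genes (orange) and the nearest tested flanking genes (grey), in map order at the 5 loci. Dotted lines mark the limit of 0.5, and only Blcap, Nap1l5 and Inpp5f were called.

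Relatives elsewhere in the genome were listed for Nap1l5, Herc3, Zrsr1, Commd1, Mcts2, H13 and Inpp5f, and none for Nnat and Blcap, 39 genes in all, of which 38 were tested. None was called by edgeR, 3 of the 38 were at an unadjusted p below 0.05 (Herc4, Commd4 and Synj2), close to the 6.7% of all genes tested, and DESeq2 also called 0. Their median log2 fold change was -0.0077, with a range from -0.31 to 0.41. Of the relatives of the retrocopies, Mcts1 had a log2 fold change of -0.090 (SE 0.091), Zrsr2 of -0.0067 (SE 0.11) and Nap1l4 of -0.076 (SE 0.065). The coding sequence of Mcts2 was identical to that of Mcts1 at 84.4% of 546 aligned bases, and that of Zrsr1 to Zrsr2 at 80.0% of 1282 aligned bases. No stretch of 50 bases was shared by these transcripts in GENCODE vM1. Whether reads were assigned to the wrong copy was not tested.

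A list of 17 paternally expressed genes at other loci was set beside the inner genes. The list is not complete and was drawn up with earlier results of these data known. It leaves out Dlk1, Dio3 and Rtl1, paternally expressed genes of a locus that is methylated on the paternal allele, and all 3 were called lower in M-Z- embryos, Dlk1 with a log2 fold change of -2.42 (SE 0.16) and Dio3 with -1.80 (SE 0.18). It also leaves out Igf2 (0.18, SE 0.30) and Rasgrf1 (-0.85, SE 0.42), which were not called. Of the 17 genes, 3 were called and all 3 rose (raised calls were 0.0437% of all genes), namely the zinc finger gene Peg3, the hydrolase gene Mest and the zinc finger gene Plagl1, with log2 fold changes of 1.21 (SE 0.18), 0.67 (SE 0.11) and 1.27 (SE 0.12). Only 1 was called when replicate 3 or 5 of M-Z+, or replicate 6 of M-Z-, was left out. All 17 of this incomplete list had a log2 fold change above 0, with a median of 0.43 and a range from 0.14 to 1.61, where 7733 of the 16026 genes tested were above 0. The study reports Snrpn, Ndn, Magel2, Mkrn3 and Peg12 as already raised and largely biallelic in M-Z+ embryos. It reports methylation as mostly kept in M-Z- embryos at the Peg10, Kcnq1ot1 and Slc38a4 control regions. Log2 fold changes here were 0.14, 0.19, 0.22, 0.38 and 0.36 for the former genes, in that order. For Peg10, Kcnq1ot1 and Slc38a4 they were 0.23, 0.44 and 0.24. The median thus holds for this mix of genes only. Beside the 17, Nap1l5 (0.94) and Inpp5f (0.78) lay above this median, and Nnat (0.54) and Zrsr1 (0.47) lay close to it. Mcts2 (-0.078) lay below the lowest of the 17. These comparisons are a description, with no test of the genes as a set.

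The variation among embryos of the same genotype was compared between genes by the Pearson correlation of deviations from the group means of log2 CPM over 12 libraries, among 12876 genes with a mean of at least 5 CPM. The most alike were Egln1 for Nnat (r = 0.971), Mettl2 for Blcap (0.824), Zfp882 for Nap1l5 (0.922), Mapk9 for Herc3 (0.969), Fndc4 for Zrsr1 (0.865), Rhoa for Commd1 (0.990), Scrn2 for Mcts2 (0.911), Ppp4r1 for H13 (0.947) and Tax1bp1 for Inpp5f (0.974). None of these 9 was called between the groups. An inner gene and its host varied together only weakly, with r of 0.11 for Nnat and Blcap, 0.44 for Nap1l5 and Herc3, 0.33 for Zrsr1 and Commd1 and 0.11 for Mcts2 and H13. Nap1l5 and Inpp5f, which lie on different chromosomes, had r = 0.79, and Nnat and Herc3 had r = -0.89. These values are descriptions, since all genes of a library share its depth and composition and the best match was picked among many genes.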

How the data were processed

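RNA-seq libraries of 12 whole E13.5 embryos, 6 M-Z+ and 6 M-Z-, were grouped by genotype from the labels. The 12 embryos of the same series with bisulfite sequencing were not analysed here. Per gene, the authors deposited raw counts together with FPKM values, and tests were run on the counts alone. The deposited FPKM values imply 1 length per gene, which is longer than the gene's span for 5.61% of 24161 genes, and therefore levels per kilobase were made from counts and merged GENCODE vM1 exons. The gene length slope was still computed with the lengths implied by FPKM. The submitters' processing notes list HISAT2 2.0.4, Trim Galore 0.4.1 and mm10. The study's methods describe STAR and strand-specific featureCounts with a UCSC mm9 annotation for its own libraries, and whether the deposited table was counted in this way is not stated in the sources used here. Positions are those of the table, and they overlapped RefSeq GRCm38.p6 for 99.8% of 25595 symbols.

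R 4.3.3, edgeR 4.0.16 (TMM, filterByExpr, glmQLFit and glmQLFTest), DESeq2 1.42.0, sva 3.50.0, Python 3.11.15, Biopython 1.88 and matplotlib 3.10.9 were used. M-Z- was compared with M-Z+ without covariates, with Benjamini-Hochberg adjustment over 16026 genes. Calls needed an adjusted p under 0.05 with a log2 fold change of more than 0.5 in size. Count ratios within a library had 0.5 added to both genes on the log2 scale and were compared by exact permutation over all 924 divisions of the libraries. The fits were tested on simulated data.

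Named genes were Zfp57, the 9 genes, the flanking genes, Mcts1, Zrsr2, Nap1l4, the other paternally expressed genes called, the marker genes and the genes most alike in variation. Herc4, Commd4, Synj2, Dlk1, Dio3, Rtl1, Igf2, Rasgrf1, Snrpn, Ndn, Magel2, Mkrn3, Peg12, Peg10, Kcnq1ot1 and Slc38a4 were named after their values were seen. The genes and lists were chosen with earlier results of these data known. Separate litters are not stated, so that p-values measure only the spread between these embryos, and repeated PCR copies of a molecule were counted like separate ones. Alternatives were DESeq2, RLE factors, a filter at 50 counts on average, no filter beyond 1 count, a replicate block, 2 surrogate variables, the gene length slope, no fold change limit, 1 count added to ratios, differences of fitted fold changes in place of count ratios, and each embryo left out.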

Additional observations from a re-analysis of the deposited data

How the results depend on the processing

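Nap1l5, Inpp5f and Blcap were called by DESeq2, with RLE factors, under both filters, with the block, the surrogate variables and the gene length slope, and in all 12 fits that left out an embryo. The number of all genes called was 13, and it was 40 with DESeq2, 37 with surrogate variables, 23 with the gene length slope and 11 to 15 with an embryo left out, and all 13 were also called by those 3 fits on all embryos. The other paternally expressed genes called numbered 3, and 1 to 4 with an embryo left out. The log2 fold change of Herc3 changed sign to -0.072 with surrogate variables and -0.10 with the gene length slope, and that of Mcts2 to 0.018 with surrogate variables, and each stayed uncalled. With an embryo left out, Herc3 ranged from -0.031 to 0.11 and the log2 ratio difference of Mcts2 over H13 from -0.066 to 0.086, on both sides of 0. A block for the replicate number gave 21 called genes, and the ratios of Nnat, Nap1l5 and Zrsr1 over their hosts had an exact sign-flip p of 0.0312, the smallest that 6 pairs allow. Deviations of embryos with the same number correlated at 0.10, 0.02, 0.30, 0.33, 0.13 and 0.64, all above 0. The most alike embryo of the other group had the same number for M-Z+ replicates 3, 5 and 6 and for M-Z- replicates 4 and 6. For the other embryos it had a different number. Ddx3y was above 5 CPM in replicates 1, 2 and 6 of both groups. What the numbers stand for is not stated in the sources used here, and the main fit did not take them as pairs. Zrsr1 and Nnat stayed uncalled throughout, with adjusted p from 0.0703 to 0.939. Mcts2 had the fewest reads of the 9 genes, 155 to 400 per library, and an SE of 0.12 on the log2 scale.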

Other observations

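Of the 13 genes called in all, 7 rose and 6 fell, and Nap1l5, Inpp5f and Blcap were 3 of the 13. Of 28 groups of values examined for a single embryo far from the other 5, 0 held such an embryo, where chance marks about 1 in 20.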
